A study of Mus musculus with 24 samples.

Results

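The dependence of the fumonisin B1 response on the liver X receptors was measured in mouse liver as a difference of differences. For each gene, the change between treated and untreated wild-type mice was subtracted from the same change in receptor knockout mice. All 24 arrays of the series entered this contrast, and 22088 genes were tested for it. The genes were then sorted by the genotypes in which the response passed its test: it grew in the knockout, passed there alone, was lost or turned.

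RNA came from the livers of female mice of the sv129/C57 background, 8 weeks of age, which received water or, for 1 month, fumonisin B1 (FB1) at a daily 10 mg/kg. There were 6 wild-type mice on water (WT control), 6 on FB1 (WT FB1), 6 knockout mice on water (KO control) and 6 on FB1 (KO FB1), each with 1 single-colour Agilent array. The KO mice are labelled as lacking LXRα and LXRβ, in every cell as far as the labels say, and the sources used here do not give the extent of either deletion. The arrays lay on 3 slides of 8, with 2 arrays of each group on every slide, so that slides and groups were balanced. In whole-liver RNA, fewer cells of a type and less RNA per cell cannot be told apart, and this holds for every gene below.

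FB1 is a toxin of Fusarium moulds on maize. It inhibits the ceramide synthases, which attach a fatty acid to the amino group of sphingoid bases, so that free sphingoid bases build up and complex sphingolipids fall, and liver and kidney are among its main targets. LXRα, encoded by Nr1h3, and LXRβ, encoded by Nr1h2, are nuclear receptors for oxysterols. In liver they switch on genes of cholesterol export and of fatty acid synthesis, and in macrophages they also restrain inflammatory genes.

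Signals are given as log2 of the processed spot intensity minus the array's own 75th percentile, so that 0 is a spot at that percentile. The 75th percentile lay between 490 and 685 intensity units, between 58.7% and 64.5% of spots were well above background, and no spot was saturated (0 in all). Between arrays of 1 group the correlation across genes was 0.984 to 0.994. Nr1h3 fell from a median of 5.0 in WT control to -4.41 in KO control, and Nr1h2 from 4.15 to 0.53, so both labels were borne out by the targeted genes. The interaction was called for neither gene and was 0.28 ± 0.41 (SE) for Nr1h3 and 0.04 ± 0.11 for Nr1h2. WT control replicate 4 stood apart on the second principal component (22.8) and replicate 5 on the third (-63.3). Some results are also given without these 2 arrays. Replicate 6 also lay away from most WT controls on the second component, on the other side (-17.8). Without replicate 6 alone the interaction described below was called for 1691 genes.

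FB1 changed far more genes in the knockout than in the wild type. At a Benjamini-Hochberg adjusted p under 0.05 in limma (called, below), 638 of 22088 genes (2.89%) changed with FB1 in WT, 456 higher (2.06%) and 182 lower (0.824%). In KO the count was 9097 (41.2%), of which 3654 rose (16.5%) and 5443 fell (24.6%). The median size of the FB1 effect over all genes was 0.12 on the log2 scale in WT and 0.24 in KO. A larger number of calls in 1 genotype is not a test of the difference between genotypes, and the interaction supplies that test.

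The interaction itself was called for 2055 genes (9.3%). It was higher in KO for 985 (4.46%) and lower for 1070 (4.84%), a share of higher calls of 47.9%. With the values the authors normalised, the share of higher calls was 58.5%, among 1921 genes. The median interaction over all genes was -0.04 with a median standard error of 0.17, and 1304 of the called genes differed by at least 1.5-fold. Of the called genes, 1970 (95.9%) had the larger effect in KO. The interaction estimate had the same sign on all 3 slides for 2005 of the called genes (97.6%), against 35.3% of the genes not called. The slides are parts of the same set of arrays that gave the calls. The call itself therefore favours a shared sign, and the contrast of these shares is a description and not a replication. The size of the response did differ between slides: fitted on 1 slide of 8 arrays at a time, the interaction was called for 6, 3 and 1083 genes. Without KO FB1 replicate 3, 3038 genes were called, 42.0% of them higher.

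The 6 KO FB1 arrays lay entirely above the other 18 arrays for 673 genes and entirely below for 526, together 5.44% of the genes with a value on every array. Among the genes called for the interaction this held for 709 of 2052 (34.6%), a share that the call itself favours. KO and WT differed for 3363 genes (15.2%) without FB1 and for 7246 genes (32.8%) with FB1. Of the 2055 genes, 1438 differed between genotypes under FB1 only, 270 without FB1 only, 200 in both states in the same direction and 63 in both states in opposite directions. The remaining 84 passed in neither.

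The called genes were dominated by responses that passed the test in the knockout alone. This class held 1908 genes (92.8% of the 2055), 899 with a rise and 1009 with a fall in KO. The median KO effect was 0.87 among those that rose, beside 0.06 for the same genes in WT, and -0.65 among those that fell, beside -0.06 in WT. The genes were sorted by these same calls, which favours a small WT effect, so the medians are a description. The WT effect was under 0.5 in size for 1805 of the 1908, and the lack of a WT call does not show that no response occurred. An amplified response, called in both genotypes with the same sign and larger in KO, was seen for 64 genes (3.11%), of which 53 rose and 11 fell. Lost responses, called in WT but not in KO, numbered 41 (2%), with 28 WT rises and 13 WT falls. In 5 genes the response was reversed, in 1 it was attenuated, and 36 genes passed the interaction test without passing in either genotype.

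**Figure D1:**
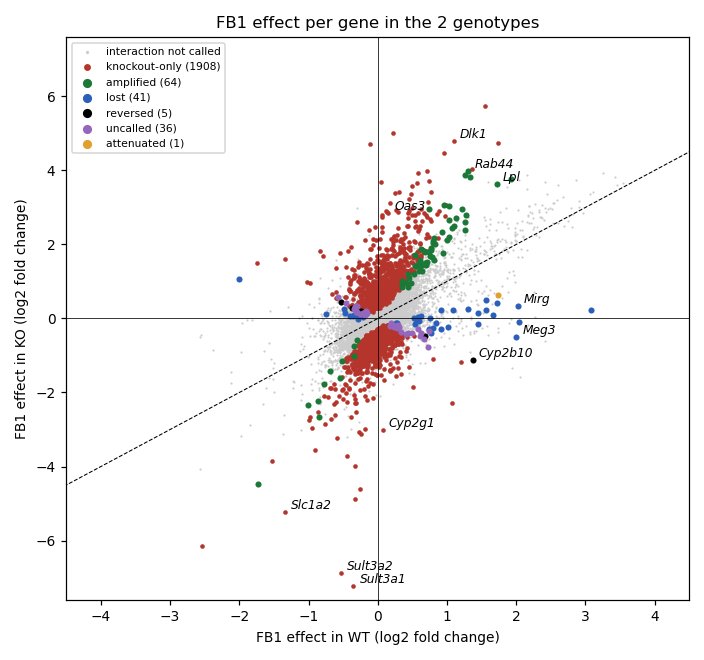
FB1 effect of each of 22088 genes in WT (horizontal axis) against KO (vertical axis), both as log2 fold change, with the called genes coloured by class and the dashed line marking equal effects. The knockout-only genes (1908) form a vertical cloud around 0 on the WT axis, with Sult3a1 and Sult3a2 at its lower end, and the amplified genes (64) lie off the line on the side of the larger KO effect. The definitions of the classes favour these positions.

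Most genes that FB1 changed in wild-type mice changed in the same direction in the knockout. Of the 638 genes called in WT, 598 had the same sign in KO, and 516 were called in KO as well, 511 of them with the same sign. For 527 (82.6%) the interaction was not called, a smaller share than over all genes, of which 9.3% were called. The lack of a call does not show an equal response. Among the 638 genes the median ratio of the KO effect to the WT effect was 1.13. These 638 were chosen for their WT effect, so the ratio is a description.

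The largest interactions were falls that passed the test in the knockout only, and they were led by a pair of sulfotransferases. Sult3a1 and Sult3a2 encode cytosolic sulfotransferases of a family more abundant in the liver of female than of male mice. The Sult3a1 probe lies at chr10:33599244-33599303 (build mm9) and the Sult3a2 probe at chr10:33499545-33499604. Because the genes are close relatives, the first 30 of the 60 bases of each probe are shown, 5′ to 3′, to let the probes be told apart; at their best ungapped alignment the full probes share 18 of 60 positions.
Sult3a1: cagacaaaatgattaccttgtgcctagatt
Sult3a2: gagagtcaccggaatggaactgaaaacatc

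Sult3a1 gave signals of 7.77 to 8.25 in WT control (median 8.08), 7.24 to 8.05 in WT FB1 (median 7.69), 7.63 to 8.02 in KO control (median 7.70) and -1.13 to 1.75 in KO FB1 (median 0.50). The 18 arrays of the other groups sat together near the top of the scale, and the 6 KO FB1 arrays lay far beneath them with no overlap. The FB1 effect was -0.35 in WT (adjusted p = 0.552, limma) and -7.23 in KO, a 151-fold fall, and the interaction was -6.88 ± 0.41 (SE, adjusted p = 8.02e-10, limma). A second Sult3a1 probe also gave -6.88. Sult3a2 behaved alike at a lower signal, with medians of 4.33, 3.70 and 4.06 in WT control, WT FB1 and KO control and -3.43 in KO FB1. Its highest KO FB1 array was at -0.78 and its lowest array of the other groups at 3.43. The interaction for Sult3a2 was -6.36 ± 0.52 (adjusted p = 2.44e-07), a 118-fold fall in KO. On the 3 slides the interaction was -5.50, -6.98 and -8.17 for Sult3a1 and -4.33, -7.09 and -7.66 for Sult3a2.

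Other large knockout-only falls were in a glutamate transporter and in enzymes of oxidation. Slc1a2 encodes a glutamate transporter that in liver marks the hepatocytes next to the central vein. Its signal was 2.90 to 3.54 in WT control, -0.24 to 2.95 in WT FB1 (median 2.09), 2.44 to 2.95 in KO control and -4.28 to -1.18 in KO FB1. Only the KO FB1 arrays were fully separated, although the WT FB1 arrays spread downward. The effect was -1.35 in WT (adjusted p = 0.117, limma) and -5.23 in KO, with an interaction of -3.89 ± 0.65 (adjusted p = 0.00116). Cyp2g1, a cytochrome known from the olfactory mucosa, was at -0.38 to 1.41 in WT control, 0.37 to 1.07 in WT FB1, 0.06 to 2.22 in KO control and -2.35 to -1.88 in KO FB1. The KO FB1 arrays lay beneath every array of the other groups, and the interaction of Cyp2g1 was -3.09 ± 0.44 (adjusted p = 0.000314). The leucine-rich repeat gene Lrtm1 had an interaction of -3.28 ± 0.64 and the cytochrome Cyp3a44 one of -2.79 ± 0.53. All of these calls were kept in each of the alternatives tried apart from single slides. The hydroxysteroid sulfotransferase Sult2a7 (-3.61 ± 1.02, adjusted p = 0.0277) lost its call in 6 of 36 alternatives, with an adjusted p of up to 0.056.

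Xenobiotic and female-biased enzymes as a list moved down mainly in the knockout. Of 35 tested genes, 14 had a lower interaction and 0 a higher one, against 4.84% lower calls over all genes, and the list median was -0.62 beside -0.04 over all genes. The median FB1 effect of the list was -0.17 in WT and -0.84 in KO. Array by array, the list's median relative to WT control lay between -0.93 and -0.54 in KO FB1, and between -0.39 and 0.16 on the other 18 arrays, with no overlap. Within the slides the list median interaction was -0.46, -0.34 and -1.17. Besides Sult3a1 and Cyp3a44, the 14 included the cytochromes Cyp1a2, Cyp2a4, Cyp2a5, Cyp2b9, Cyp2b10, Cyp2c37, Cyp2c50, Cyp2c54 and Cyp2e1, the carboxylesterase Ces1d and the glucuronosyltransferase Ugt2b1 (-0.99 ± 0.18, adjusted p = 0.00207). Cyp2e1, a cytochrome of ethanol and acetaminophen oxidation found around the central vein, had an interaction of -0.62 ± 0.17 (adjusted p = 0.021).

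Genes that depend on Wnt signalling around the central vein gave 5 lower and 0 higher calls among 15, beside 4.84% of all genes called lower. The list median was -0.37. The 5 were Slc1a2, Oat, Glul, Cyp1a2 and Cyp2e1, of which the last 2 also stand in the xenobiotic list. Oat, ornithine aminotransferase, ran from 6.67 to 7.56 in WT control, 5.57 to 7.26 in WT FB1, 7.48 to 8.09 in KO control and 3.97 to 5.75 in KO FB1. WT FB1 and KO FB1 overlapped narrowly in Oat, and KO control was the highest group. Its interaction was -2.05 ± 0.40 (adjusted p = 0.00321, limma), with -1.84, -0.80 and -3.52 on the slides. Glul, glutamine synthetase, the usual marker of that zone, had an interaction of -1.40 ± 0.40 (adjusted p = 0.0285). Its value is given although it lay outside the naming rule.

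Gluconeogenesis, urea cycle and amino acid catabolism followed the same course. Of 30 genes, 10 had a lower interaction and 0 a higher one, beside 4.84% of all genes called lower. The list median was -0.51, from -0.25 in WT to -0.77 in KO. The 10 included Otc of the urea cycle, Hpd, Hgd and Fah of tyrosine breakdown, Gls2, Cbs, Mat1a, Gnmt and Aass. Gls2, liver glutaminase, was lower by an interaction of -0.71 ± 0.18 (adjusted p = 0.0155), Aass of lysine breakdown by -0.74 ± 0.19 (adjusted p = 0.0165) and Cbs, cystathionine beta-synthase, by -0.52 ± 0.12 (adjusted p = 0.0106). The Cbs call was lost in 2 of 37 alternatives, with an adjusted p of up to 0.086. The slides differed for this list, with medians of -0.61, 0.01 and -0.88. The second slide, where the list median of the interaction was near 0, held KO FB1 replicates 3 and 4.

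Bile acid synthesis and transport gave 6 lower calls and 1 higher call among 23 genes, beside 4.84% and 4.46% of all genes. The list median was -0.31. Cyp7b1, the oxysterol 7α-hydroxylase of the alternative bile acid pathway, gave signals of 1.68 to 2.37 in WT control, 0.81 to 2.17 in WT FB1, 1.98 to 2.51 in KO control and -0.29 to 0.50 in KO FB1. The KO FB1 arrays did not overlap any other group. Its interaction was -1.53 ± 0.26 (adjusted p = 0.0014, limma) and was -1.96, -1.09 and -1.55 on the slides. Klb, the co-receptor for FGF15 signals to the liver, was lower by -0.78 ± 0.14 (adjusted p = 0.00188), and Akr1d1, the reductase of bile acid intermediates, by -1.04 ± 0.20 (adjusted p = 0.00269). Cyp27a1, Slc27a5 and the uptake transporter Slco1b2 made up the rest of the lower calls, and the export transporter Abcc4 was the higher call. Cyp7a1, the rate-limiting enzyme of the classical pathway, had an interaction of -0.05 ± 0.71 (adjusted p = 0.97) and was chosen for mention after its value was seen.

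**Figure D2:**
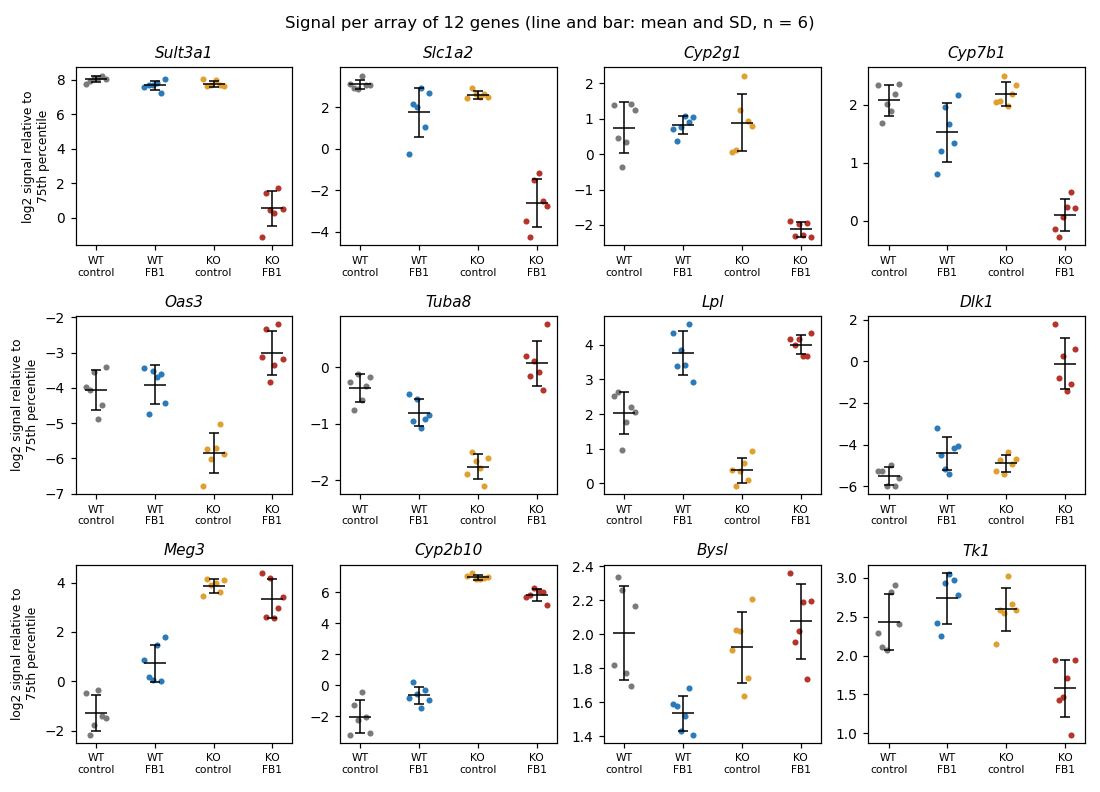
Signal of 12 genes on each of the 24 arrays, as log2 relative to the array's 75th percentile, by group, with a line and bar for mean and SD (n = 6). The KO FB1 arrays of Sult3a1 (highest 1.75) lie apart from all other arrays (lowest 7.24), Tuba8 and Lpl start lower in KO control and end at or above the wild type under FB1, and Meg3 and Cyp2b10 are high in KO without FB1.

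The rises that passed the test in the knockout alone included interferon-stimulated genes. These genes are switched on by interferons, and many encode antiviral proteins, such as the oligoadenylate synthetases of the Oas family that activate RNase L. Many of their promoters hold the interferon-stimulated response element, whose core is a repeat of GAAA. The stretches below show that repeat for the 4 called genes in which it was found. They come from RefSeq promoter windows (250 bases before to 50 after the start, assembly GRCm38.p6), are read 5′ to 3′ on the gene's strand, and have the motif in capitals, searched as GAAA, any 2 bases and GAAA on both strands with overlapping matches joined. All 4 genes lie on the minus strand: Oas1a at chr5:120907526-120907585, Oas1g at chr5:120887614-120887673, Oas3 at chr5:120777700-120777759 and Isg15 at chr4:156200862-156200921.
Oas1a: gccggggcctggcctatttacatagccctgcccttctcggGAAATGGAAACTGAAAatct
Oas1g: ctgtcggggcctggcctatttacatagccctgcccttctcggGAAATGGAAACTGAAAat
Oas3: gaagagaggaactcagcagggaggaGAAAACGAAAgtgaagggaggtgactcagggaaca
Isg15: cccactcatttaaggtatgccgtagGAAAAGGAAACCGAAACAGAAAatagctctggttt

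Of the 27 interferon-stimulated genes tested, 19 had a promoter window, and 11 of these held the motif. Among those called for the interaction it was 4 of 9 windows and among those not called 7 of 10. The motif stood in 3.8% of the windows of all genes tested, in 5.07% of those of the knockout-only rises and in 3.44% of all 32851 windows. The motif was thus frequent among interferon-stimulated genes with and without a called interaction. A match is a description of the letters and not a bound site.

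The interaction was higher for 13 of the 27 interferon-stimulated genes and lower for 0, against 4.46% higher calls over all genes. The 13 were Isg15, Ifit2, Ifi44, Ifi27, Ifi27l2a, Oas1a, Oas1g, Oas2, Oas3, Oasl1, Irf7, Usp18 and Ifi35, and all 27 estimates were above 0. In WT, 0 of the 27 were called for FB1 in either direction, and in KO 24 rose. The list median was 1.14, from 0.30 in WT to 1.37 in KO. Without FB1 the list was lower in KO, with a median of -0.40 and estimates under 0 for 24 genes, 6 of them called. Under FB1 the order was turned, with a median of 0.71 and 17 genes called higher in KO. The response therefore began from a lower level and ended above the wild type.

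By array, the median of the interferon-stimulated genes relative to WT control ran from -0.51 to 0.55 in WT control, -0.21 to 0.78 in WT FB1, -0.63 to -0.23 in KO control and 0.10 to 1.60 in KO FB1. The KO groups did not overlap, but KO FB1 overlapped both wild-type groups. Within the slides the list median interaction was 1.62, 0.09 and 1.61. On the second slide the KO FB1 arrays gave 0.77 and 0.10, the latter from KO FB1 replicate 3, and the WT FB1 arrays gave -0.10 and 0.78. Leaving out any 1 array moved the list median between 0.98 and 1.35, and it was 1.2 without WT control replicates 4 and 5.

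Oas3 had the largest interaction of the list. Its signal was -4.88 to -3.40 in WT control, -4.74 to -3.44 in WT FB1, -6.79 to -5.03 in KO control and -3.84 to -2.19 in KO FB1, close to the background in the untreated knockout, where 1 of 6 arrays was well above it. The interaction was 2.70 ± 0.44 (adjusted p = 0.000996, limma), and 2.46 with the dim arrays raised to the background floor. With FB1, Oas3 was higher in KO than in WT by 0.90. Without FB1 it was lower by -1.80 as measured, a value that rests on KO arrays mostly not well above background. Oas1g went from medians of -3.13 and -2.57 in WT control and WT FB1 to -4.02 and -1.35 in KO control and KO FB1, with an interaction of 2.50 ± 0.42 (adjusted p = 0.00118). Oas1g rose 7.97-fold in the knockout, and its wild-type groups overlapped. Oas2 followed at 1.21 ± 0.24 (adjusted p = 0.00358). The slide values were 2.54, 2.62 and 2.95 for Oas3 and 3.41, 1.45 and 2.66 for Oas1g.

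Tubulin, annexin and S100 genes of the cytoskeleton and membrane gave 11 higher and 0 lower calls among 22, beside 4.46% of all genes called higher. The median FB1 effect of the list was 0.14 in WT and 0.97 in KO. The list median on the KO FB1 arrays lay between 0.49 and 0.90 relative to WT control and touched no other group, whose highest array was at 0.46. The slide medians were 0.55, 0.45 and 1.34. Tuba8, an alpha-tubulin, ran from -0.76 to -0.11 in WT control, -1.07 to -0.47 in WT FB1, -2.10 to -1.49 in KO control and -0.40 to 0.77 in KO FB1. The estimate for Tuba8 was negative in WT (-0.44, adjusted p = 0.144) and positive in KO (1.83), and the interaction of 2.26 ± 0.22 (adjusted p = 5.84e-06, limma) had the smallest p of the list. Tuba8 was lower in KO than in WT by 1.39 without FB1 (log2 difference -1.39) and higher by 0.88 with FB1. Anxa5, a calcium-dependent phospholipid-binding protein, was higher by 1.12 ± 0.21 (adjusted p = 0.00265), and Tubb2a, Tubb2b, Tubb4b, Anxa1, Anxa3, Anxa7 and S100a11 were also called. Anxa2 and S100a6 were of the amplified class.

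Markers of recruited monocytes and macrophages gave 8 higher and 0 lower calls among 17, beside 4.46% of all genes called higher. The median FB1 effect of the list was 0.54 in WT, where 7 were called, and 1.42 in KO, where 14 were called. By array the list median relative to WT control was 1.66 to 2.30 in KO FB1 and -0.55 to 0.95 elsewhere, with no overlap. The slide medians were 1.16, 0.07 and 1.45. Lyz2, the lysozyme of phagocytes, stood at 4.22 to 5.27 in WT control, 4.47 to 5.14 in WT FB1, 4.78 to 5.29 in KO control and 6.12 to 6.54 in KO FB1. Lyz2 was raised in the KO FB1 arrays alone, with an interaction of 1.08 ± 0.20 (adjusted p = 0.00234, limma). Lpl and Cd63 rose in both genotypes and more in KO, and Cd9, Lgals3, Cd68, Ms4a7 and Tyrobp completed the 8 calls. The interaction was not called for Trem2, Gpnmb, Spp1, Itgax, Itgam, Cx3cr1, Ccr2, Ly6c2 and Fabp5, although 15 of the 17 estimates were positive. Between genotypes, 7 of the 17 were called higher in KO and 5 lower without FB1, and 11 higher and 3 lower with FB1. The part that a changed number of macrophages had in these rises was not tested.

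Resident macrophage markers did not share this course. Of 15 genes, 12 were lower in KO without FB1 and 10 lower in KO with FB1. The interaction was higher for 2 and lower for 1, beside 4.46% and 4.84% of all genes. Its list median was -0.23, with 0.08, -0.64 and 0.36 on the slides, and -0.02 without WT control replicates 4 and 5. With FB1, 4 of the 15 were called higher in KO and 2 lower. By array the list median relative to WT control was -2.17 to -1.05 in KO control and -1.52 to -0.78 in KO FB1. Cd163, the haemoglobin scavenger receptor, was at 1.30 to 2.08 in WT control and 0.94 to 2.42 in WT FB1. It was at -2.73 to -1.43 in KO control and -5.41 to -3.33 in KO FB1, so that a level already low in the knockout fell further, with an interaction of -2.08 ± 0.43 (adjusted p = 0.00458, limma). A second Cd163 probe gave a smaller interaction of -0.41, with an FB1 effect in KO of -0.40. C6, a complement component, went the other way and returned to the wild-type level, from -3.15 to -2.17 in KO control to -0.99 to 1.46 in KO FB1, against -0.71 to 0.41 in WT control. Its interaction was 2.73 ± 0.39 (adjusted p = 0.000314). The C1qa call (0.83 ± 0.25, adjusted p = 0.0368) was lost in 13 of 37 alternatives, with an adjusted p of up to 0.073.

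Extracellular matrix genes rose with FB1 in both genotypes, and 10 of 33 rose more in the knockout, with 0 lower calls. Over all genes 4.46% were called higher. The median effect of the matrix list was 0.72 in WT and 1.31 in KO, and the slide medians of the interaction were 0.81, 0.10 and 0.96. Lox, which cross-links collagen, was at -5.42 to -3.99 in WT control, -5.98 to -3.90 in WT FB1, -5.53 to -4.26 in KO control and -2.90 to -2.12 in KO FB1. The KO FB1 arrays did not overlap the others, and the interaction of Lox was 2.40 ± 0.43 (adjusted p = 0.00188, limma). The lowest Lox signals lay near the background floor of the arrays (-6.18 to -5.25), and the interaction ranged from 0.96 to 2.62 over the alternatives other than single slides. Its relative Loxl1 was higher by 1.48 ± 0.33 (adjusted p = 0.00742), and Col1a2, Col4a1, Fbn1, Lum, Mmp2, Timp1, Timp2 and Anxa2 were called as well. Among 15 stellate and myofibroblast markers 4 were called higher, including the contractile protein Tagln (1.17 ± 0.25, adjusted p = 0.00573) and Cygb, the globin of quiescent stellate cells (0.76 ± 0.18, adjusted p = 0.0102). A matrix protein of that list, Dpt (1.22 ± 0.34, adjusted p = 0.0267), lost its call in 2 of 37 alternatives, with an adjusted p of up to 0.055.

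Several fetal and tumour-associated genes were among the largest rises. Dlk1, a Notch-like ligand of fetal hepatoblasts, went from -6.0 to -4.99 in WT control and -5.41 to -3.19 in WT FB1 to -5.43 to -4.35 in KO control and -1.43 to 1.79 in KO FB1. The KO FB1 arrays stood clear of all others. The interaction of Dlk1 was 3.70 ± 0.61 (adjusted p = 0.000958, limma), and a second probe gave 2.50. The lowest Dlk1 signals also lay near the background floor, and the interaction ranged from 2.52 to 3.96 over the alternatives other than single slides. H19, a maternally expressed long RNA abundant in fetal liver, ran from -4.15 to -2.38, -3.27 to -0.99 and -1.51 to 0.57 in WT control, WT FB1 and KO control, and from 1.41 to 6.48 in KO FB1. It was already higher in the untreated knockout by 2.62, and its interaction was 3.52 ± 0.85 (adjusted p = 0.0119). Golm1, the Golgi protein GP73 that serves as a marker of liver disease, had an interaction of 2.11 ± 0.28 (adjusted p = 0.000214). In the list of 13 oncofetal genes 5 were higher and 2 lower, the latter Meg3 and Mirg, beside 4.46% and 4.84% of all genes. The list median was -0.02, or 0.15 without WT control replicates 4 and 5.

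The other leading knockout-only rises were Cib3 (4.79 ± 1.06), the surface protein Ly6d (4.19 ± 0.86), Car8 (3.26 ± 0.79), the antimicrobial peptide Defb1 (3.15 ± 0.49), Gipc2 (3.12 ± 0.55) and Smpd3 (3.09 ± 0.66). For Cib3 and Defb1 the untreated knockout lay under the wild type, by -2.35 and -2.19, and the treated knockout above it, by 2.44 and 0.96. Car8 had estimates of opposite sign, -1.75 in WT (adjusted p = 0.0927) and 1.51 in KO (adjusted p = 0.034). The largest rises thus came in part from genes with a low start in the knockout.

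A few genes were well above background in only some groups, and for these a lower bound of the fold is given. Kif5c, a kinesin heavy chain, was well above background on 0 KO control arrays and on 6 arrays of each other group. It rose at least 7.34-fold with FB1 in KO, and its interaction was 3.64 ± 0.63 (adjusted p = 0.00157, limma), or 2.83 with the dim arrays raised to the background floor. Wif1, a secreted Wnt inhibitor, was well above background on 6 KO control arrays, on 0 arrays of either FB1 group and on 2 WT control arrays. It fell at least 5.66-fold with FB1 in KO, with an interaction of -2.74 ± 0.52, or -2.30 at the floor. Htra4, a serine protease, was well above background on 0 KO FB1 arrays and all others and fell at least 5.62-fold in KO. Its interaction of -2.65 ± 0.55 (adjusted p = 0.00477) lost its call in 1 of 36 alternatives (adjusted p = 0.0504).

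Stress response lists gave higher calls and 0 lower ones, beside 4.46% of all genes called higher. Among 24 NRF2 targets, genes of the antioxidant response, 7 were higher, with a list median of 0.47 from -0.13 in WT to 0.40 in KO. The median KO minus WT difference of the list was -0.21 without FB1 and 0.08 with FB1. By array the list median in KO FB1 (-0.45 to 0.14) overlapped both wild-type groups. The 7 included Cbr3, a carbonyl reductase (1.24 ± 0.28, adjusted p = 0.00759), Srxn1, which restores peroxiredoxins (1.03 ± 0.25, adjusted p = 0.0133), and Gstm3, Ephx1, Ugdh, G6pdx and Abcc4. Of 25 genes of the integrated stress and unfolded protein response 2 were higher, a share near that of all genes. Asns, asparagine synthetase, an ATF4 target, was at 0.32 to 1.45 in WT control and 0.71 to 1.8 in WT FB1, against -1.19 to 0.02 in KO control and 0.51 to 2.90 in KO FB1. Only KO control was set apart, and the Asns interaction was 2.26 ± 0.45 (adjusted p = 0.00384, limma). Ddit3, which encodes CHOP, was higher by 0.77 ± 0.20 (adjusted p = 0.0189), and its call was lost in 1 of 37 alternatives (adjusted p = 0.121), while a second Ddit3 probe gave 0.13. Of 22 p53 targets 4 were higher, namely the apoptosis genes Bax (0.62 ± 0.11), Pmaip1 (0.85 ± 0.21) and Aen (0.63 ± 0.17), and Phlda3, which was amplified. Over 4 further Aen probes the interaction ran from -0.22 to 0.95.

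**Figure D3:**
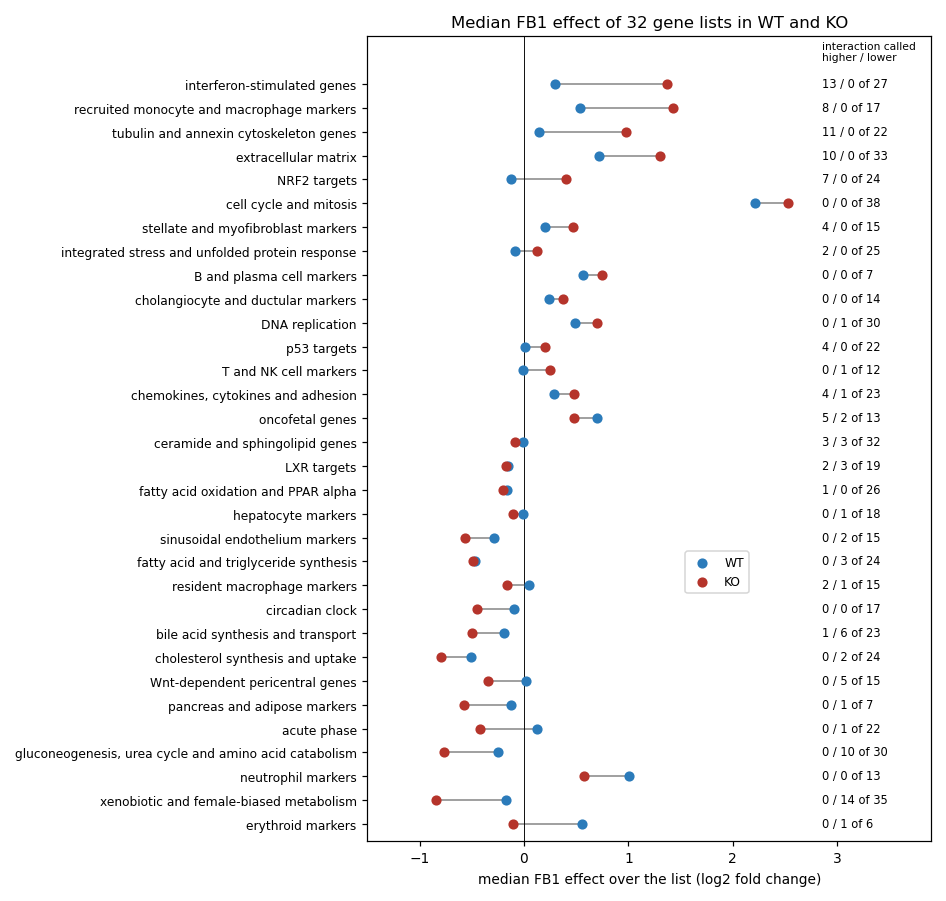
Median FB1 effect (log2 fold change) of 32 gene lists in WT (blue) and KO (red), ordered by the list median of the interaction, with the numbers of genes called higher and lower at the right. Interferon-stimulated genes (13 of 27 higher) stand at the top and are nearly flat in WT, several lists of hepatocyte metabolism move left in KO, and the cell cycle list has large effects in both genotypes with 0 calls.

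Amplified responses were mostly rises. The 53 amplified rises had a median effect of 0.77 in WT and 1.81 in KO, and all 6 KO FB1 arrays lay outside the other 18 for 35 of them. The class was defined by a larger effect in KO, so these values are a description. Over the 53, KO minus WT had a median of 0.07 without FB1 and 1.22 with FB1, and 49 differed between genotypes with FB1. Lpl, lipoprotein lipase, which is also an LXR target, was of this class but departed from these medians. It was at 0.97 to 2.63 in WT control and 2.92 to 4.60 in WT FB1, and at -0.08 to 0.94 in KO control and 3.69 to 4.33 in KO FB1. FB1 raised Lpl 3.30-fold in WT and 12.3-fold in KO, with an interaction of 1.90 ± 0.38 (adjusted p = 0.00391, limma) and slide values of 1.81, 0.76 and 3.13. The knockout began lower by -1.65 and ended at 0.25 from the wild type (adjusted p = 0.508), so the amplification bridged a lower start. Over 5 further Lpl probes the interaction was positive, from 0.05 to 2.02.

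Of the 53 amplified rises, 15 were called between the genotypes without FB1. Anxa2, annexin A2, began at about the wild-type level. It was at 2.20 to 2.84 in WT control, 3.17 to 4.27 in WT FB1, 2.26 to 3.16 in KO control and 4.56 to 5.94 in KO FB1. Its groups ordered without overlap between treated and untreated, and the interaction of 1.64 ± 0.34 (adjusted p = 0.00456, limma) lost its call with the authors' values (adjusted p = 0.112). Cd63, a tetraspanin of lysosomes, had an interaction of 1.18 ± 0.20 (adjusted p = 0.00146). Rab44 (2.67 ± 0.50), the interferon-induced Ifi27l2b (2.48 ± 0.36), Spats2l (2.12 ± 0.37, 1.04 with a second probe), Ccdc120 (2.0 ± 0.32) and Spon2 (1.74 ± 0.29) kept their calls in each alternative other than single slides. Mybl1, a Myb-family regulator (1.86 ± 0.59, adjusted p = 0.0475), lost its call in 20 of 37.

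Among the 11 amplified falls, Hnf4aos, an RNA antisense to Hnf4a, had the largest interaction of those with at least 4 arrays well above background in each group. It was at 1.79 to 2.52 in WT control, 0.51 to 2.08 in WT FB1, 1.08 to 1.77 in KO control and -1.60 to -0.34 in KO FB1, and its interaction was -1.80 ± 0.32 (adjusted p = 0.00188, limma). Gna14, a G-protein alpha subunit, had an interaction of -0.73 ± 0.20 (adjusted p = 0.0221) and Praf2 of -0.66 ± 0.13 (adjusted p = 0.00261). Srms (-1.36 ± 0.30) and Cml3 (-0.98 ± 0.24) lost their calls in 2 alternatives each, with adjusted p of up to 0.144 and 0.292.

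Among lost rises with at least 4 arrays well above background in each group, the largest interactions were those of RNAs of the imprinted Dlk1 and Meg3 domain of chromosome 12. Meg3 and Mirg are long RNAs transcribed from the maternal copy there. Meg3 was at -2.15 to -0.36 in WT control and 0.02 to 1.79 in WT FB1, a 4.0-fold rise without overlap. In the knockout it was at 3.46 to 4.14 without FB1 and 2.56 to 4.40 with it, above both wild-type groups and with the KO groups overlapping. The effect was 2.0 in WT (adjusted p = 0.00244) and -0.51 in KO (adjusted p = 0.277), and the interaction was -2.51 ± 0.52 (adjusted p = 0.00456, limma), with -2.75, -2.01 and -2.76 on the slides. Over 4 further Meg3 probes the interaction was negative, from -2.32 to -1.01. Mirg was likewise higher in KO without FB1 by 4.07 and had an interaction of -1.69 ± 0.42 (adjusted p = 0.0146), a call lost in 2 of 37 alternatives with an adjusted p of up to 0.18. Dlk1, in the same domain, was a knockout-only rise as described above.

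Other lost rises were smaller. Lrrc9 (-1.30 ± 0.33), C1qtnf3 (-1.23 ± 0.30), Lrrc71 (-1.05 ± 0.25) and Rnase10 (-0.75 ± 0.18) rose in WT by 1.72, 1.01, 1.30 and 0.76 and had KO effects of 0.43, -0.22, 0.25 and 0.01. The mast cell tryptase Tpsb2 (-1.07 ± 0.30, adjusted p = 0.025) lost its call in 1 of 37 alternatives (adjusted p = 0.051). Pf4, platelet factor 4, rose by 0.75 in WT and stood at 1.07 to 1.45 in KO control, above all WT arrays, with an interaction of -1.02 ± 0.22 (adjusted p = 0.00661).

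The 13 lost falls had a median interaction of 0.44, with a range of 0.25 to 3.08. Bysl, Wdr74, Ltv1 and Bop1, which encode factors of ribosome assembly, were among them, and no list of that function was examined. Bysl was at 1.69 to 2.33 in WT control, 1.41 to 1.68 in WT FB1, 1.64 to 2.21 in KO control and 1.74 to 2.36 in KO FB1. The WT FB1 arrays lay just under WT control, while the KO groups overlapped. The interactions were 0.62 ± 0.17 for Bysl, 0.42 ± 0.10 for Wdr74, 0.40 ± 0.10 for Ltv1 and 0.34 ± 0.10 for Bop1. The calls of Bysl and Bop1 were lost in 1 and 13 of 37 alternatives, with adjusted p of up to 0.0504 and 0.085. Alg2, a mannosyltransferase of N-glycan assembly, had the largest of the lost falls with a symbol and a clear signal, at 0.75 ± 0.17 (adjusted p = 0.00803). Of the 36 genes called in neither genotype, 17 moved from a negative estimate in WT to a positive one in KO. Among them were Rrp12 of ribosome export (0.89 ± 0.25), Srm of spermidine synthesis (0.64 ± 0.20) and the tRNA-modifying Mettl1 (0.63 ± 0.17). The calls of Rrp12 and Mettl1 were each lost in 1 alternative, with no filter on dim probes (adjusted p = 0.054 and 0.051), and that of Srm in 19.

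In 5 genes FB1 acted in opposite directions in the genotypes, with both effects called. Cyp2b10, a cytochrome controlled by the receptor CAR, was at -3.17 to -0.41 in WT control and -1.47 to 0.20 in WT FB1. It was at 6.82 to 7.25 in KO control and 5.19 to 6.25 in KO FB1. The untreated knockout was thus 508-fold above the untreated wild type, FB1 raised the low level by 1.37 (adjusted p = 0.03) and lowered the high one by -1.13 (adjusted p = 0.0118). The interaction was -2.50 ± 0.49 (adjusted p = 0.00346, limma), and a second probe gave -2.30. Its relative Cyp2b9, named after its values were seen, showed the same directions, 1.2 in WT (adjusted p = 0.132) and -1.18 in KO, with an interaction of -2.38 ± 0.60. The Cyp2b10 and Cyp2b9 probes share at best 19 of 60 positions.

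G6pdx, glucose-6-phosphate dehydrogenase of the pentose phosphate pathway, fell in WT by 0.53 and rose in KO by 0.43, from 0.47 to 0.83 in KO control to 0.81 to 1.32 in KO FB1. Its WT arrays were at 1.2 to 2.32 without and 0.82 to 1.27 with FB1, so the genotypes met at the same level under FB1. The interaction was 0.96 ± 0.19 (adjusted p = 0.00395, limma). Tmem68 (0.64 ± 0.14) and the arginine methyltransferase Prmt7 (0.45 ± 0.09) turned upward and the uncharacterised C730014E05Rik (-1.15 ± 0.17) downward. The Prmt7 call was lost with the mean of its probes (adjusted p = 0.45). Without WT control replicates 4 and 5 the reversed class held 9 genes. The attenuated response was Dzip1 (-1.11 ± 0.33, adjusted p = 0.0356), a call lost in 15 of 37 alternatives. A second Dzip1 probe showed neither a response nor an interaction, with -0.02 in WT, -0.07 in KO and an interaction of -0.05.

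**Figure D4:**
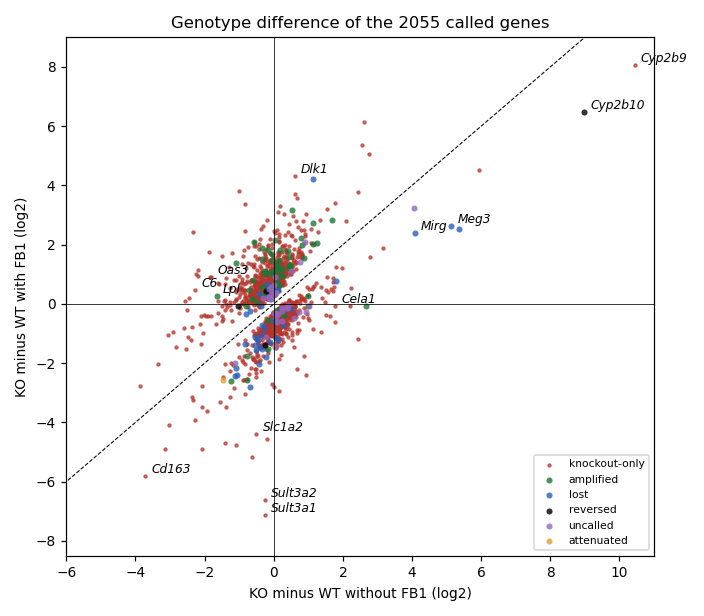
KO minus WT without FB1 (horizontal axis) against KO minus WT with FB1 (vertical axis), both log2, for the 2055 genes called for the interaction, coloured by class, with the dashed line marking an equal difference. The KO-only falls Sult3a1 and Sult3a2 differ between genotypes under FB1 only, Meg3, Mirg and Cyp2b10 lie far to the right, and Oas3 and C6 are lower in KO without FB1 but not with it.

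LXR targets were often lower in the knockout, and some also had an interaction. Of 19 LXR targets 10 were lower in KO without FB1 and 14 with FB1. The interaction was called for 5 of the 19, higher for 2 and lower for 3, beside 9.3% of all genes, with a list median of -0.07. Abcg5, 1 of the 2 subunits of the sterol transporter of the canalicular membrane, was at 4.53 to 5.62, 4.16 to 5.12 and 4.74 to 5.63 in WT control, WT FB1 and KO control and at 3.26 to 4.07 in KO FB1. Its fall was therefore confined to the KO FB1 arrays among these groups, with an interaction of -1.17 ± 0.27 (adjusted p = 0.0101, limma). Abcg8, its partner, was called lower as well. Abcg1, a cholesterol exporter of macrophages, was higher by 1.05 ± 0.25 (adjusted p = 0.0109). The targets Scd1, Srebf1 and Abca1, named after their values were seen, had interactions of 1.1 (adjusted p = 0.0685), -0.52 (adjusted p = 0.336) and 0.01 (adjusted p = 0.974), although Scd1 was lower in untreated KO by -4.22.

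Fatty acid and triglyceride synthesis gave 3 lower and 0 higher calls among 24 genes, and cholesterol synthesis and uptake 2 lower and 0 higher among 24. Over all genes 4.84% were called lower and 4.46% higher. The list medians were -0.21 and -0.33. On the slides they were -0.37, 0.33 and -0.48 for the first list and -0.85, 0.05 and -0.20 for the second. In the cholesterol list 23 of 24 estimates were negative. FB1 lowered 22 of these genes in KO, beside 24.6% of all genes, and 1 in WT, beside 0.824%. Without FB1, 4 of them were called higher in KO and 1 lower. Tm7sf2, a sterol reductase, was lower by -1.03 ± 0.20 (adjusted p = 0.00267). The calls of Thrsp, Mlxipl, Dgat2 and Ebp were lost in 7, 10, 14 and 11 of 37 alternatives, with adjusted p of up to 0.0592, 0.0619, 0.195 and 0.249. Among 26 genes of fatty acid oxidation Cidec, a lipid droplet protein, was the 1 call (1.97 ± 0.44, adjusted p = 0.00823).

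The genes of the pathway that FB1 itself inhibits were called at about the share of all genes. Of 32 ceramide and sphingolipid genes 3 were higher and 3 lower, beside 4.46% and 4.84% of all genes, with a list median of -0.04, equal to that of all genes at this precision. Cers5, a ceramide synthase that prefers palmitoyl-CoA, was at -0.59 to -0.26 in WT control, -0.59 to -0.21 in WT FB1, -0.68 to -0.29 in KO control and -0.02 to 0.45 in KO FB1. It was raised in KO FB1 alone, without overlap, by an interaction of 0.66 ± 0.13 (adjusted p = 0.00336, limma). Smpd3, the neutral sphingomyelinase that releases ceramide, was at -3.70 to -0.41 in WT control, -2.34 to 0.39 in WT FB1, -3.92 to -2.41 in KO control and -0.53 to 0.67 in KO FB1. Its KO FB1 arrays overlapped the top of the wild-type range but not KO control. Acer3, an alkaline ceramidase, was higher by 0.45 ± 0.13 (adjusted p = 0.0347), a call lost in 13 of 37 alternatives (adjusted p of up to 0.073). The lower calls were Cers2, the very-long-chain ceramide synthase of hepatocytes (-0.47 ± 0.14), Sgms2 of sphingomyelin synthesis (-0.60 ± 0.18) and Smpd2 (-0.53 ± 0.17).

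The strongest response to FB1 in the wild type, that of the cell cycle, did not pass the test of a genotype difference. Of 38 cell cycle and mitosis genes, 36 rose with FB1 in WT and 37 in KO, with median effects of 2.21 and 2.53, and the interaction was called for 0 in limma, with 1 at an unadjusted p under 0.05. The 95% interval of the interaction included 0 for 37 of the 38, but it lay within ±1 for only 3, so that a moderate difference was not detectable at this spread. The list median was 0.39, with 0.12, -0.29 and 1.33 on the slides. Ccnd1, cyclin D1, had the smallest p of the list, at 0.86 ± 0.35 (adjusted p = 0.123). In the list of 30 DNA replication genes Tk1, thymidine kinase, was the 1 call. It was at 2.07 to 2.91 in WT control, 2.25 to 3.05 in WT FB1, 2.14 to 3.03 in KO control and 0.98 to 1.95 in KO FB1, a fall in KO FB1 alone with an interaction of -1.32 ± 0.26 (adjusted p = 0.00389).

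**Figure D5:**
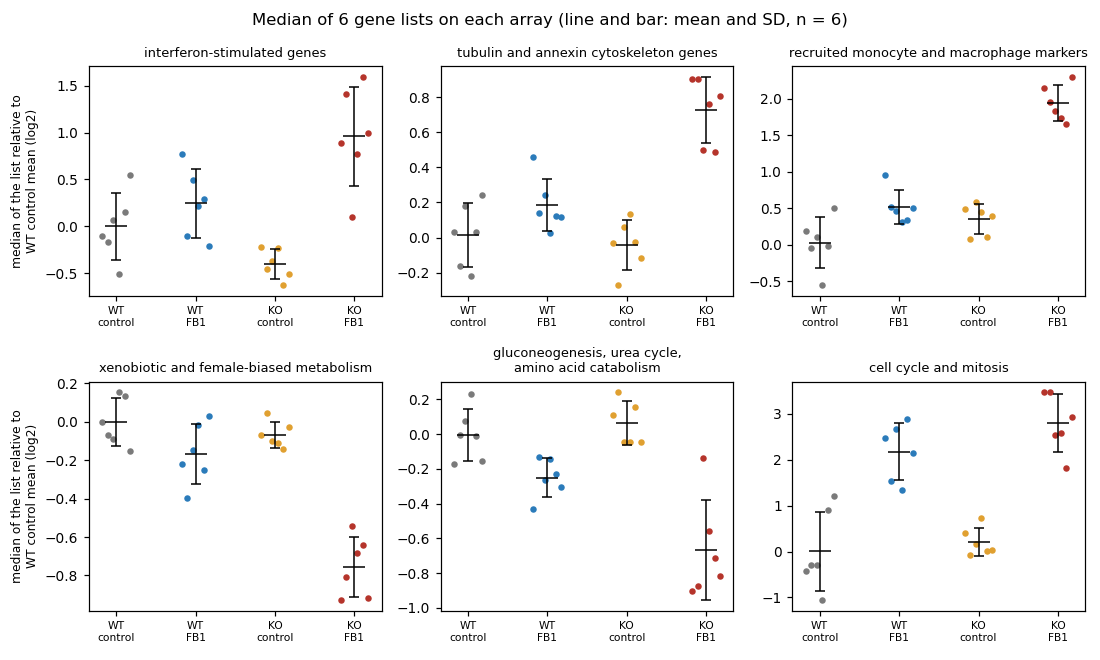
Median of 6 gene lists on each of the 24 arrays, as log2 relative to the WT control mean of each gene, by group, with a line and bar for mean and SD (n = 6). KO FB1 stands apart from the other 18 arrays for the tubulin and annexin, recruited macrophage and xenobiotic lists, overlaps the wild type for interferon-stimulated genes, and both FB1 groups are high for the cell cycle list.

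Markers of other cell types that liver tissue can hold gave few calls in this contrast, although the medians of some lists lay away from that of all genes (-0.04). Over all genes 4.46% were called higher and 4.84% lower. Among 18 hepatocyte markers, all well above background on the 24 arrays, the 1 call was Cyp2e1, which fell, and the list median was -0.11. Of the 18 estimates 16 were negative. With FB1, 8 of the 18 were called lower in KO, beside 24.6% of all genes, and 0 in WT. By array the hepatocyte list median relative to WT control was -0.57 to 0.08 in KO FB1 and -0.14 to 0.12 in KO control. Sinusoidal endothelium gave 2 lower calls of 15, including the scavenger receptor Stab2 (-0.71 ± 0.18, adjusted p = 0.018), whose 4 further probes gave -0.64 to -0.23. Erythroid markers gave 1 lower call of 6, Klf1 (-1.34 ± 0.28, adjusted p = 0.00477), whose second probe gave -0.42. The erythroid list median was -0.94, with 6 of 6 estimates negative, and lay between -1.14 and -0.78 with 1 array left out. T and NK cell markers gave 1 lower call of 12, Zap70 (-0.60 ± 0.18, adjusted p = 0.0404), lost in 15 of 37 alternatives with an adjusted p of up to 0.082. In limma, neutrophil, B and plasma cell, cholangiocyte and circadian clock genes gave 0 calls among 13, 7, 14 and 17, with 1, 2, 1 and 6 at an unadjusted p under 0.05. The neutrophil list median was -0.56, with 12 of 13 estimates negative, and became 0.01 without WT control replicates 4 and 5. Chemokines, cytokines and adhesion genes gave 4 higher calls and 1 lower call of 23, among them Cd14, the endotoxin co-receptor (1.38 ± 0.26, adjusted p = 0.00261), Cxcl14 (1.53 ± 0.31, adjusted p = 0.00408) and, lower, Cxcl12 (-0.63 ± 0.14, adjusted p = 0.0068). Of 22 acute phase genes Saa4 was the 1 call (-1.47 ± 0.45, adjusted p = 0.0395), lost in 18 of 36 alternatives with an adjusted p of up to 0.077.

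Pancreatic and adipose markers served to look for tissue carried along at dissection. Of 14 such markers, Pnlip was well above background on 0 arrays and Prss2 and Cfd on 1 array each, while Cela2a, Amy2a5, Ctrb1, Plin4 and Lep were so on 6 arrays of every group, and Adipoq on 1 and 2 arrays of the WT groups (control, then FB1) and on 4 and 0 of the KO groups. The part of carried-over tissue in these signals was not tested. Cela1, an elastase gene also expressed outside the pancreas, was the 1 call of 7, at 2.81 to 3.91 in WT control, 2.95 to 4.09 in WT FB1, 4.82 to 5.24 in KO control and 3.30 to 3.83 in KO FB1. The high level of the untreated knockout returned to that of the wild type, with an interaction of -1.84 ± 0.24 (adjusted p = 0.000183, limma) and -1.85, -1.81 and -1.87 on the slides. A second Cela1 probe gave a smaller interaction of -0.64, with an FB1 effect in KO of 0.14, so the fall rests on the brighter probe.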

How the data were processed

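The deposited scanner files hold spot intensity as Agilent Feature Extraction 10.10.1.1 wrote it, background-subtracted and detrended within the array, per the file headers. A deposited table holds log2 values that the authors normalised between arrays. The submitters' processing notes name limma, and the sources used here do not give the filter behind that table.

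Main values were log2 intensity minus the array's 75th percentile over 59305 non-control spots. Outlier spots (64 to 121 per array) were left missing. Of 56605 probes, 33417 were tested, being well above background on every array of at least 1 group with at least 4 values in each group. Each gene was represented by the tested probe of highest mean. Symbols came through RefSeq accessions for 14782 genes and otherwise from the files, and probe coordinates are those of the files (mm9). Group means over all 24 arrays were fitted in R 4.3.3 with limma 3.58.1 and the data.table package (version 1.17.8), with Benjamini-Hochberg adjustment over all genes. The fit was tested on simulated data. Figures used Python 3.11.15 with matplotlib 3.10.9. The number of arrays limits the precision, and p-values measure the spread between mice.

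The gene lists (637 of 673 symbols tested in 32 lists) and the members were chosen with earlier results of these data known. Named genes were, per class and direction, the 8 largest interactions with at least 4 arrays well above background in each group, the 3 largest among genes with a group of 0 such arrays, and per list the 3 called members with the smallest p or else the 1 with the smallest. Not all are described, and some are not reported here. Alternatives were other normalisations (quantile, median centring, normexp with an offset of 50, the authors' values), filters, thresholds, probe rules, blocks, weights, a trend, single slides and leaving out arrays. Where 1 to 3 alternatives ended a call, the highest adjusted p is given.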

Additional observations from a re-analysis of the deposited data

Results flagged for a closer look

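Single arrays far from the rest of their group of 6 were looked for in 31 genes and 32 lists, and chance alone flags about 1 in 20 groups. In the genes this was seen in 7 of 124 groups (5.65%). The signals were 0.14 for C6 and 2.74 for Cd63 and 1.41 for Golm1 in WT FB1 (replicates 2, 1 and 1), -3.99 for Lox and 3.54 for Slc1a2 in WT control replicate 4, 8.09 for Oat in KO control replicate 2 and -2.56 for Nr1h3 in KO FB1 replicate 6.

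In the list medians, relative to WT control, it was seen in 11 of 128 groups (8.59%). In KO FB1 the values were 0.16 for DNA replication and -0.45 for NRF2 targets (both replicate 5), and -0.74 for fatty acid and triglyceride synthesis and -1.52 for resident macrophage markers (both replicate 3). In WT FB1 they were 0.98 for acute phase (replicate 2), 0.0088 for cholangiocyte and ductular markers (replicate 5), 1.17 for extracellular matrix and 0.95 for recruited monocyte and macrophage markers (both replicate 1) and 0.23 for neutrophil markers (replicate 4). WT control replicate 2 gave -0.14 for NRF2 targets and KO control replicate 6 gave -0.16 for the circadian clock.

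The difference between genotypes was itself tested, and 2055 genes passed. In 5 of them both genotypes had a called effect of opposite sign, with interactions of -2.50 for Cyp2b10, -1.15 for C730014E05Rik, 0.96 for G6pdx, 0.45 for Prmt7 and 0.64 for Tmem68.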

How the results depend on the processing

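The count of 2055 interaction calls stayed within 1.5 times under quantile normalisation (2178), median centring (2008), normexp (2239), the authors' values (1921), a stricter filter (2014), all outlier spots retained (2054), a mean over probes (2061), the slide as a block (2111), an intensity trend (2230) and array weights (2836). With the replicate number as a block it was 1898. The numbers did not pair the arrays: of 36 same-numbered pairs 5 had a correlation of deviations over 0.1, and 2 of 24 arrays correlated best with their own number. Of the called genes present in each setting, 2047 of 2055 kept their sign with a mean over probes, 2053 of 2055 with normexp, 1968 of 1969 with the authors' values and 1888 of 1889 with the stricter filter, and 2055 of 2055 in the others. Among the called named genes the sign turned for Acss2os (0.016 with normexp and 0.060 with the authors' values). Of 130 called named genes, 85 kept the call in each setting other than single slides.

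Counts are given below in the order interaction, higher, lower, amplified, knockout-only, lost, reversed, attenuated and uncalled. Without a filter on dim probes, where more probes were tested, the interaction was called for 1258 genes, 641 higher and 617 lower, with 28 amplified, 1178 knockout-only, 2 reversed, 0 attenuated and 18 uncalled. At adjusted p under 0.01 the numbers were 624, 358, 266, 9, 597, 7, 1, 0 and 10, with 279 for FB1 in WT and 1917 and 4699 for KO against WT without and with FB1. At 1.5-fold or more they were 1304 in all, 576 lower, 1098 knockout-only, 24 lost, 1 reversed and 132 uncalled, with 417 for FB1 in WT, 3737 for FB1 in KO, and 1831 and 3255 between genotypes. The attenuated class held 0 genes with quantile normalisation, normexp, the authors' values, the mean of probes and the replicate block, and the reversed class 2 with the authors' values and 3 with the stricter filter.

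Single slides hold 8 arrays, so fewer samples stand behind each fit. The first gave 6, 4, 2, 0, 6, 0, 0, 0 and 0, with 7 and 1971 for FB1 in WT and KO and 724 and 1615 between genotypes. The second gave 3, 1, 2, 0, 2, 0, 1, 0 and 0, with 33, 305, 424 and 705. The third gave 1083, 532, 551, 0, 1029, 0, 0 and 0 without the uncalled, with 0, 4905, 885 and 4162. Signs turned on the first slide for Pnck (-0.13), Nr1h3 (-0.43), Nr1h2 (-0.016) and the integrated stress list median (-0.15). On the second they turned for Mybl1 (-0.14), Syt12 (-0.18), Thrsp (0.37), Dgat2 (0.059), Blnk (-0.0072), Tef (0.016) and Nr1h3 (-0.25), and for the list medians of fatty acid (0.33), cholesterol (0.047), amino acid (0.012) and clock genes (0.24). On the third the neutrophil median was 0.80. List medians are given here only where the main value was larger than the spread between replicates of a group. Others turned as well, such as fatty acid oxidation (0.49 on the first slide), cell cycle (-0.29 on the second) and resident macrophage markers (0.36 on the third). Nr1h2 was -0.014 with normexp, -0.024 with the authors' values and -0.048 with the mean of probes.

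Leaving out 1 array gave 1490 (KO FB1 replicate 1) to 3038 (KO FB1 replicate 3) interaction calls, 726 to 1275 higher and 756 to 1763 lower, with 39 to 102 amplified, 1369 to 2832 knockout-only, 30 to 48 lost, 1 to 8 reversed, 0 to 2 attenuated and 22 to 67 uncalled. FB1 in WT ranged from 386 (without WT FB1 replicate 1) to 839 (without WT FB1 replicate 4), FB1 in KO from 7976 to 9794, and the genotypes from 2828 to 3538 without and 6191 to 7854 with FB1. Nr1h2 ranged from -0.016 without KO FB1 replicate 3 to 0.081, and Nr1h3 from -0.077 without KO FB1 replicate 6 to 0.44. Leaving out both WT control replicates 4 and 5, chosen after seeing the data, gave 2583 calls, 29 amplified, 9 reversed, 83 uncalled and 401 for FB1 in WT, and turned the neutrophil median to 0.013. The cause of these shifts was not tested. Dim probes near background limit the sizes, as the values at the background floor beside Oas3, Kif5c and Wif1 show. Those values are not bounds of the interaction. Over the alternatives other than single slides, the smallest interactions were 0.79 for Oas3, 1.08 for Kif5c and -0.82 for Wif1.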
